A study of Mus musculus with 4 samples.

Results

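The cells described here are CD8 T cells of a mouse tumour infiltrate that held few or no transcripts of the granzymes C to F. A barcode was taken when it had at least 3 UMIs over Cd3d, Cd3e and Cd3g, at least 2 over Cd8a and Cd8b1, no Foxp3, no Csf1r, fewer than 10 over Mlana and Dct, and fewer than 3 over Gzmc, Gzmd, Gzme and Gzmf. The members were thus selected on their own raw UMIs of these genes, whose levels are given as a description. A UMI, or unique molecular identifier, stands for 1 captured RNA molecule. Of 8677 cells kept, 772 met the rule, and 316 further cells met all of it except that they had 3 or more Gzmc to Gzmf UMIs. The 772 are called Gzmc-f-low cells and the 316 Gzmc-f-high cells below.

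The cells came from B16-F10 tumours, a melanoma line of the C57BL/6 strain, grown in C57BL/6 mice. One group had Adar1-null tumours and the other control tumours, with 2 libraries each, named S1 and S2 for Adar1-null and S3 and S4 for control. In both groups 2000000 tumour cells were injected in matrigel and the tumours were taken on day 14. Collagenase P and DNase I digestion lasted 10 min at 37 °C, an Optiprep gradient and magnetic beads against CD45 enriched the leukocytes, and 10x 3′ v2 libraries were made. The series describes the libraries as those of 2 Adar1 knock-out and 2 wild-type tumours; how the gene was disrupted and whether the null line is 1 clone are not given in its labels. The T cells are those of the host, so their own Adar transcripts check nothing about the tumour genotype. The p-values of the main tests rest on 2 tumours a group, and those of edgeR also draw on a spread shared over genes.

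CD8 T cells recognise peptides on MHC class I and kill through perforin and granzymes, serine proteases released from cytotoxic granules. Granzyme B is made by most activated killers, whereas the mouse granzymes C to F come from neighbouring genes and are switched on in strongly activated cells. In tumours, CD8 T cells that meet antigen for long periods take on inhibitory receptors such as PD-1 (Pdcd1), Lag3 and Tim-3 (Havcr2), and a smaller pool with the transcription factor Tcf7 keeps a memory-like, self-renewing state. Adar1 edits double-stranded RNA, and its loss in a cell can set off interferon through RNA sensors.

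The marker genes Ccl5, Cxcr6, Ms4a4b and Lag3, which the rule did not use, were detected in every library, as were the rule's own Cd8a and Cd8b1. Summed over all 6, Gzmc-f-low cells had 5622 and 9198 CPM in S1 and S2, against 8910 and 7366 CPM in S3 and S4. Gzmc-f-high cells had 4438 to 6292 CPM, and myeloid cells of the same libraries (at least 2 Csf1r UMIs) had 102 to 351 CPM. CPM stands for a gene's UMIs divided by all UMIs of the cells summed, times 1000000. Median depth was 7406 and 8723 UMIs per cell in S1 and S2, against 7978 and 7985.5 in S3 and S4, and the cells of a library gave between 951978 and 2845274 UMIs in all. Of the B cell markers, Cd79a and Ms4a1 were at 0 UMIs and Cd79b had 2 to 4 UMIs a library. The rule's Foxp3 and Csf1r were at 0. Macrophage transcripts were present in every library: 13 of 14 markers had a UMI, and their sum was 1044 and 931 CPM in S1 and S2, against 743 and 1481 in S3 and S4, while the myeloid cells had 26104 to 55921. At least 3 UMIs over Lyz2, C1qa, C1qb, C1qc and Apoe were found in 40.7% and 27.7% of Gzmc-f-low cells in S1 and S2, against 42.5% and 86.3% in S3 and S4, so S4 stood apart. Markers of CD4 and regulatory T cells summed to 358 and 313 CPM in S1 and S2, against 313 and 475 CPM in S3 and S4, and melanoma markers to 46.0 to 81.5 CPM, with all 7 detected. Dendritic cell markers summed to 985 and 1071 in S1 and S2, against 586 and 1408 in S3 and S4. No barcode was shared by Gzmc-f-low cells of different libraries, although 38 barcodes occurred in more than 1 library and 11 Gzmc-f-low cells carried one of them.

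Granzyme C to F transcripts divided the CD8 T cells into cells with none and cells with many. The genes lie near each other on the minus strand of chromosome 14 (GRCm38), with Gzme at chr14:56117626-56120625, Gzmd at chr14:56129556-56132608, Gzmf at chr14:56205263-56211417 and Gzmc at chr14:56231441-56234656. Of the 772 cells, 656 had 0 UMIs of the 4 genes, 85 had 1 and 31 had 2, so the cells are low in these granzymes and not all without them. Just outside the limit lay 22 cells with 3 and 17 with 4 UMIs, while 237 of the 316 Gzmc-f-high cells had over 8. The median of the Gzmc-f-high cells was 24 and 12 UMIs in S1 and S2, against 34 and 50 in S3 and S4. With every cell thinned to 3500 UMIs, a Gzmc UMI was seen in 5.18% of Gzmc-f-low cells, 83.2% of Gzmc-f-high cells and 1.22% of myeloid cells, the last a measure of free RNA. Without thinning it was 11.1% of Gzmc-f-low cells. The last 500 bases of the transcripts share some 50-base stretches, 68 of 451 between Gzmd and Gzme and 22 of 451 between Gzmd and Gzmf, so reads may be assigned less surely among these genes, and their sum is used.

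**Figure D1:**
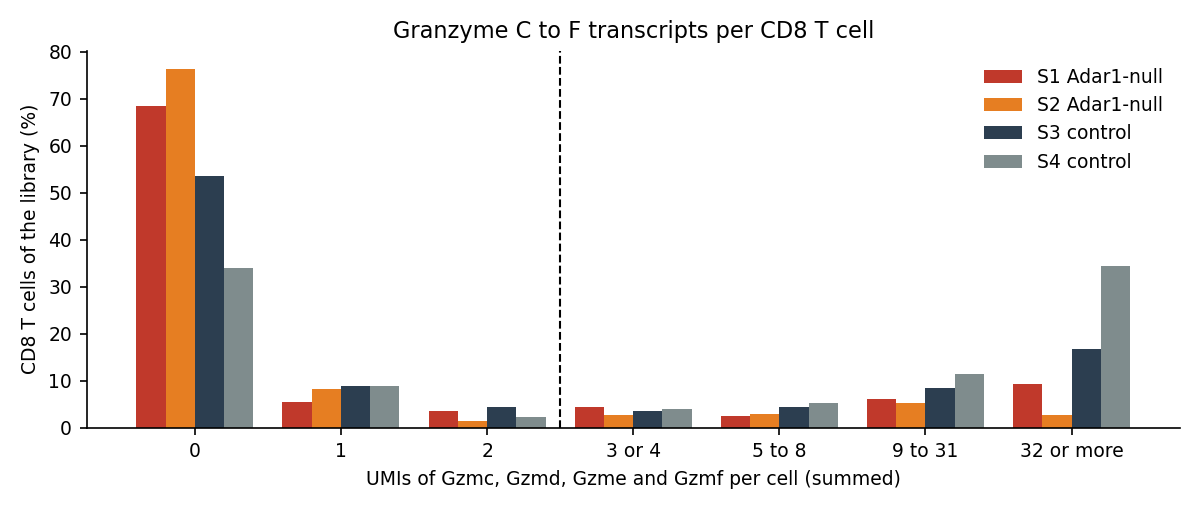
Share of each library's CD8 T cells (vertical axis, %) by the summed UMIs of Gzmc, Gzmd, Gzme and Gzmf per cell (horizontal axis, in classes of unequal width). The dashed line is the limit of the rule: 68.5% and 76.4% of CD8 T cells had 0 UMIs in S1 and S2, against 53.6% and 33.9% in S3 and S4.

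Gzmc-f-low cells made up more of the CD8 T cells in both Adar1-null libraries. They were 77.5% (95% exact binomial interval 72.1 to 82.3%) and 86.3% (82.1 to 89.8%) of CD8 T cells in S1 and S2, against 66.8% (60.6 to 72.6%) and 44.9% (38.3 to 51.7%) in S3 and S4. The groups did not overlap, and the means were 81.9 ± 6.17% and 55.9 ± 15.5% (SD, n = 2 each; exact permutation test over libraries, two-sided p = 0.3333, the smallest p that 2 against 2 allows). Of all T cells they were 58.8% and 72.3% in S1 and S2, against 55.9% and 39.2% in S3 and S4, with S1 and S3 close together. Of all cells kept they were 10.9% and 14.8% in Adar1-null against 8.51% and 3.66% in control libraries. The Gzmc-f-high cells ran the other way, at 3.14% and 2.35% of cells kept in Adar1-null libraries and 4.23% and 4.49% in control libraries, and all CD8 T cells together were at 14.0% and 17.1% in Adar1-null against 12.7% and 8.15% in control libraries. Each of these gave the same exact p = 0.3333. Intervals cover counting error only, and the shares describe the CD45-selected suspension.

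**Figure D2:**
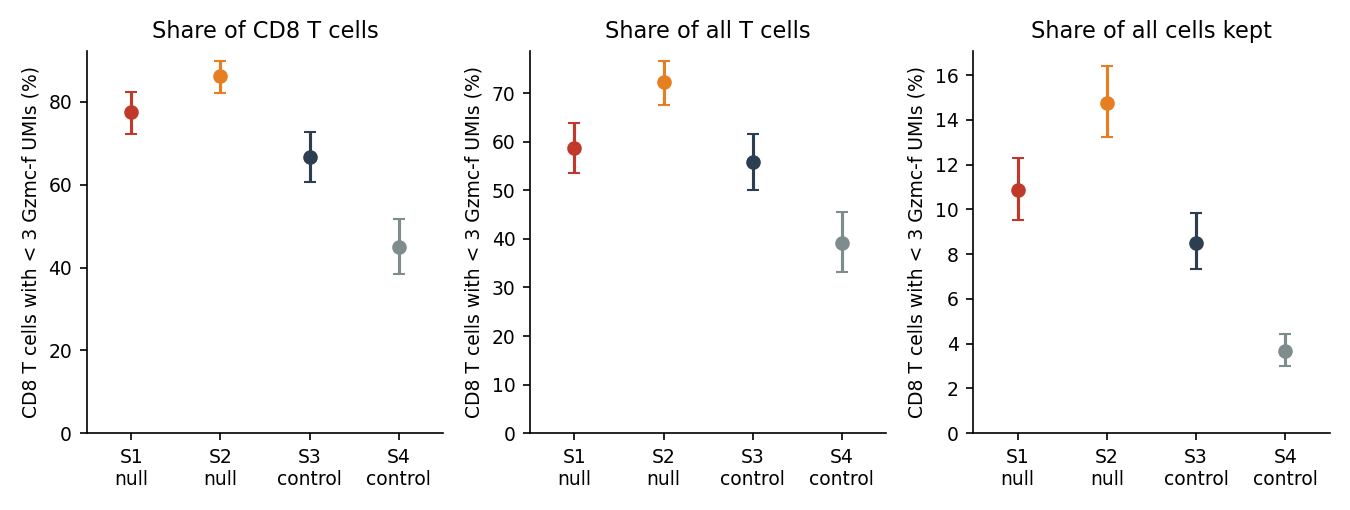
Gzmc-f-low CD8 T cells as a share of CD8 T cells, of all T cells and of all cells kept (vertical axes, %) in each library, with 95% exact binomial intervals. S1 and S2 are above S3 and S4 in each panel, by the least for all T cells, where S1 was at 58.8% and S3 at 55.9%.

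The share of CD8 T cells kept its order under each alternative run. With the rule applied to cells thinned to 3500 UMIs it was 85.3% and 92.2% in S1 and S2, against 73.5% and 53.3% in S3 and S4, and with a limit of 0 Gzmc to Gzmf UMIs it was 68.5% and 76.4% in Adar1-null against 53.6% and 33.9% in control libraries. The kinds of cell differed in depth, and Gzmc-f-high cells had medians of 10050 and 13759 UMIs in S1 and S2, against 12150 and 11372 in S3 and S4.

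Most Gzmc-f-low cells held transcripts of Gzmb, of Pdcd1 and of cell cycle genes. After thinning, 81.1% had a UMI of Gzmb, 91.3% of the chemokine gene Ccl5, 49.1% of Ifng, 57.5% of Pdcd1, 54.7% of Lag3, 20.7% of Havcr2 and 66.3% of Cxcr6, a chemokine receptor of tissue T cells. In the myeloid cells the same shares were 2.24%, 18.7%, 0.244%, 0.367%, 1.06%, 4.93% and 0.204%. Without thinning, Gzmb was seen in 84.8% and Pdcd1 in 79.0% of Gzmc-f-low cells. Granzyme K (Gzmk) was found in 23.6% and granzyme A (Gzma) in 6.87%, against 0.0407% and 0.774% in myeloid cells. At least 5 UMIs over 44 cell cycle genes were counted in 83.9% of Gzmc-f-low cells and 25.1% of myeloid cells, and the proliferation marker Mki67 in 24.7% and 5.70%.

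Tcf7 and several other memory genes were seen in few cells. Tcf7 was seen in 3.63% of thinned Gzmc-f-low cells and 0.122% of myeloid cells, Ccr7 in 9.59% and 0.530%, and Klf2 in 23.3% and 53.4%. Il7r was seen in 5.96% and 6.19%. The myeloid cells held 15.0 to 42.9 CPM of Il7r, against 14.8 to 28.4 in Gzmc-f-low cells, so for Il7r they are no sure measure of free RNA. Without thinning, Tcf7 was seen in 6.48% of Gzmc-f-low cells, Il7r in 11.8%, Ccr7 in 14.6% and Klf2 in 39.8%. Itgae, an integrin chain of resident T cells, was seen in 0.907% and 0.0815%. The 28 Tcf7-positive cells had Slamf6, a receptor of the memory-like pool, in 28.6%, against 4.97% of the others. They had Gzmb in 21.4%, against 83.3%, and Havcr2 in 0%, against 21.5%. These shares come from few cells and are a description.

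A minority of Gzmc-f-low cells was also low in granzyme B. After thinning, 626 cells had a Gzmb UMI and 146 had none. The cells without it numbered 71, 19, 29 and 27 in S1 to S4. Values of the 4 libraries are given in that order, Adar1-null and then control. With Gzmb, perforin (Prf1) was at 19.8, 52.7, 51.9 and 26.8 CPM, and without it at 4.97, 0, 7.03 and 4.11. The chemokine Ccl4 was at 2150, 1972, 2987 and 1250 in the cells with Gzmb, and at 656, 666, 538 and 666 in those without. Tcf7 ran the other way in each library, at 4.95, 5.23, 4.05 and 1.41 with Gzmb, and at 38.1, 159, 91.4 and 37.0 without. Dapl1, a gene of memory-like T cells, and Ccr7, the receptor that guides cells to lymph nodes, were likewise lower in the cells with Gzmb in 4 of 4 libraries. Xcl1 was also lower with Gzmb in 4 of 4, at 396, 285, 201 and 188, against 1099, 365, 717 and 206 without. PD-1 differed less, with Pdcd1 at 262, 278, 278 and 339 with Gzmb, and at 245, 253, 235 and 325 without.

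Xcl1, the chemokine that draws cross-presenting dendritic cells, divided the cells in a related way. A thinned Xcl1 UMI was found in 130 of the 772 cells, 59, 32, 25 and 14 in S1 to S4. Crtam, an adhesion receptor of activated CD8 T cells, had 85.2, 166, 86.7 and 266 CPM in S1 to S4 in the cells with Xcl1. In the cells without it, Crtam was at 16.8, 11.9, 20.9 and 28.9. Tcf7, Dapl1, Ccr7, Cd160, Cd200 and the chemokine Ccl1 were also higher with Xcl1 in 4 of 4 libraries, while Ccl5, Gzmb and Gzmk were lower in 4 of 4. Ccl5 was at 1853, 2264, 1488 and 2314 with Xcl1, and at 3750, 6902, 6975 and 5156 without. Both divisions were made on the cells whose values they compare, so no test was run.

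Set beside the Gzmc-f-high cells of the same library, Gzmc-f-low cells had less Gzmb, Prf1 and Gzmg and more Xcl1, Cxcr3 and Dapl1. Of 19 cytotoxic genes, 5 were higher and 7 lower in all 4 libraries. The rule itself chose the cells by granzyme content, so this comparison is a description with no test. Of 4994 genes with at least 20 CPM in either kind of cell, 662 (13.3%) were higher and 664 (13.3%) lower in Gzmc-f-low cells in all 4 libraries. Gzmg, the neighbouring granzyme that the rule did not use, had 0, 0, 0.658 and 1.05 CPM in Gzmc-f-low cells of S1 to S4. Its level in Gzmc-f-high cells was 38.5, 4.42, 119 and 567. Of the 50-base stretches compared above, Gzmg shares 23 of 451 with Gzmf, 13 with Gzmd, 1 with Gzme and 0 with Gzmc. Its counts are thus not fully independent of the rule's genes, and how far their reads add to them was not tested. Granzyme B differed less: Gzmb was at 1241, 2793, 2027 and 1163 in Gzmc-f-low cells, and at 3023, 6383, 5430 and 3495 in Gzmc-f-high cells. Serpinb9b, a serpin, was at 2.2, 2.11, 5.93 and 17.9 in Gzmc-f-low cells, against 110, 35.4, 165 and 258 in Gzmc-f-high cells. Prf1, the interleukin-2 receptor chain Il2ra, the glucose transporter gene Slc2a3, Ccl9, Serpine2, Nebl, Gipc2, Upp1, Myo10, Ccdc184 and the decoy receptor Il1r2 were lower in Gzmc-f-low cells in every library. Of 16 glycolysis genes, 8 were lower in all 4 libraries and 0 higher, with a median log2 difference of -0.28.

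The genes higher in Gzmc-f-low cells included chemokine and chemokine-receptor genes. Xcl1 had 629, 290, 298 and 192 CPM in S1 to S4 in Gzmc-f-low cells, against 93.5, 44.2, 61.3 and 71.4 in Gzmc-f-high cells. Single Gzmc-f-low cells weigh on these sums, with 434 of the 825 Xcl1 UMIs of S2 and 109 of the 183 of S4 in 1 cell each. Cxcr3, the receptor for Cxcl9 and Cxcl10, was at 16.5, 17.9, 29.6 and 29.4 in Gzmc-f-low cells, against 2.75, 2.95, 0.929 and 4.54 in Gzmc-f-high cells. The Gzmc-f-high cells of every library were below all 4 Gzmc-f-low values. The T cell surface protein gene Cd7 and Dapl1 had mean log2 differences of 2.99 and 2.89, and the survival gene Bcl2, Crtam, Pacsin1, Pyhin1, Gm4955 and the interferon-induced Rtp4 lay between 1.32 and 2.03. Tox, a transcription factor of exhausted T cells, was at 167, 177, 155 and 180 in Gzmc-f-low cells, against 124, 87.0, 94.8 and 130 in Gzmc-f-high cells. Of 10 measured genes of the naive, memory and stem-like list, 6 were higher in all 4 libraries and 0 lower, with a median log2 difference of 0.50. Of 27 type I interferon-stimulated genes, 18 were higher in all 4 and 0 lower, with a median of 0.41. Over all 4994 genes compared, 13.3% were higher and 13.3% lower in all 4, with a median of 0.006. Pdcd1 differed little, with a mean log2 difference of -0.15, and 22 mitotic (G2/M) genes had a median of 0.01.

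**Figure D3:**
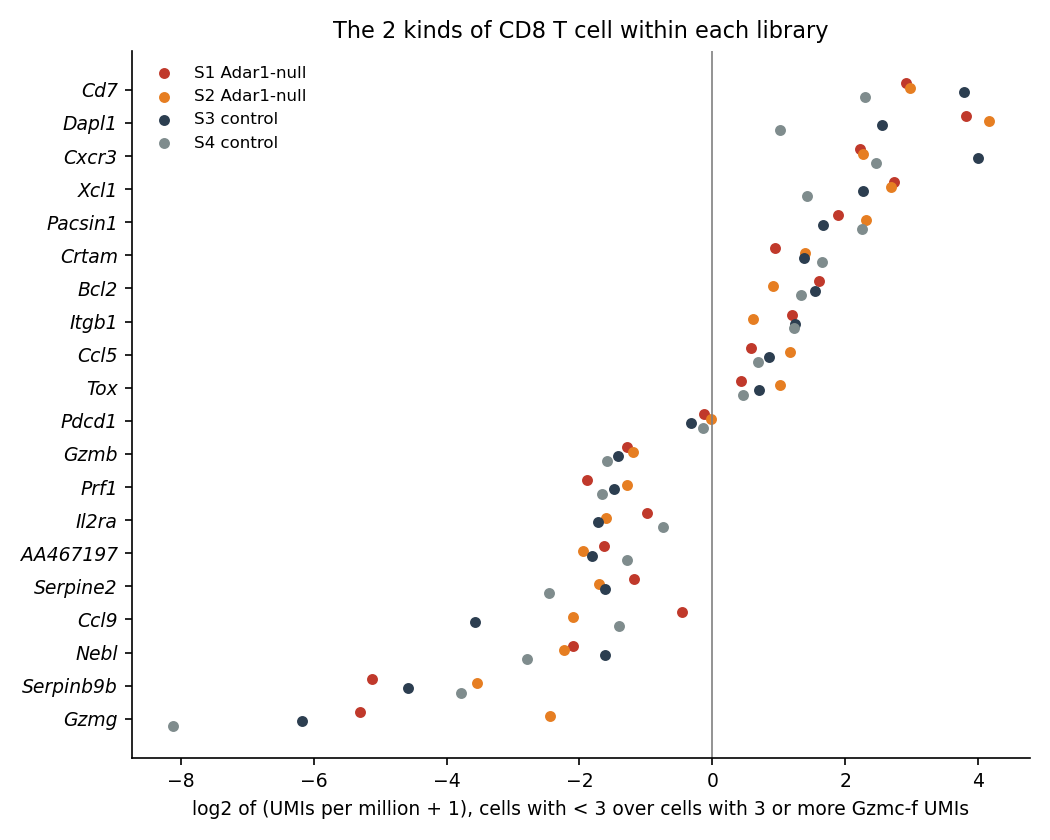
Log2 of CPM plus 1 in Gzmc-f-low over Gzmc-f-high CD8 T cells (horizontal axis) for 20 genes, with 1 point per library. Values right of 0 are higher in Gzmc-f-low cells: Cd7 averaged 2.99, Xcl1 2.28, Pdcd1 -0.15, Gzmb -1.37 and Gzmg -5.51.

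Several genes changed in steps across the granzyme limit. In cells with 0, with 1 or 2, with 3 or 4, and with 5 or more Gzmc to Gzmf UMIs, Gzmb was at 1887, 2610, 2727 and 4633 CPM, pooled over libraries. AA467197 was at 135, 185, 317 and 539, and Tcf7 at 18.1, 3.89, 2.17 and 0.562. Xcl1 had a step at the limit itself, at 358, 396, 82.4 and 66.3. The classes hold unequal shares of the libraries.

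Whether the tumour genotype changed the Gzmc-f-low cells was tested on their UMIs summed per library. Among 8181 genes, the quasi-likelihood test of edgeR, adjusted by Benjamini-Hochberg, called 4 (0.0489%) at an adjusted p of 0.05, 2 higher (0.0244%) and 2 lower (0.0244%) in Adar1-null libraries. At an unadjusted p under 0.05, 187 genes (2.29%) were higher and 222 (2.71%) lower. The genes called were Cxcl10 and Col1a1 (higher) and H1f0 and AA467197 (lower).

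H1f0 encodes a linker histone that accumulates in cells leaving the cycle, and it was lower in Adar1-null libraries. It is ENSMUSG00000096210 at chr15:79028450-79030504 (GRCm38, plus strand). H1f0 was at 50.1 and 52.7 CPM in S1 and S2, against 109 and 107 in S3 and S4. The log2 change was -1.12 ± 0.16 (SE, edgeR, adjusted p = 0.0144), lower in 2 of 2 Adar1-null libraries than in either control. The UMIs were spread over cells, since 23.4% and 27.7% of cells had one in S1 and S2, against 35.9% and 40.2% in S3 and S4, and no cell held more than 23. In the Gzmc-f-high cells it was at 114 and 81.1 in Adar1-null against 133 and 119 in control libraries, and in myeloid cells at 95.8 and 73.4 in Adar1-null against 82.2 and 98.6 in control libraries, where the groups overlapped. The call held under all 13 alternatives, with adjusted p between 1.36e-06 and 0.0482.

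AA467197, known as Nmes1, encodes a small mitochondrial protein, and fell to 104 and 120 CPM in S1 and S2, against 199 and 202 in S3 and S4 (log2 change -0.88 ± 0.14, edgeR adjusted p = 0.0370). It is ENSMUSG00000033213 at chr2:122636986-122641191 (plus strand). As given above, this gene was higher in Gzmc-f-high cells, at 326 and 467 in S1 and S2, against 699 and 493 in S3 and S4, which is also lower in both Adar1-null libraries. With the limit set to 0 Gzmc to Gzmf UMIs it changed by -0.86 on the log2 scale (edgeR adjusted p = 0.0999), without S1 it was -0.80 (adjusted p = 0.165), and over all 13 alternatives the adjusted p lay between 3.75e-06 and 0.165. The gene body holds the miR-147 hairpin. Its mature 5p arm, whose small RNA these libraries do not measure, lies at chr2:122640814-122640837 in the RefSeq table for GRCm38.p6, with the seed (bases 2 to 8) in capitals:
mmu-miR-147-5p: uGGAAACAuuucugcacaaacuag

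Cxcl10, an interferon-induced chemokine that attracts Cxcr3-bearing T cells, was higher in Adar1-null libraries, from few cells. It is ENSMUSG00000034855 at chr5:92346638-92348889 (minus strand). Cxcl10 was at 52.9 and 55.2 CPM in S1 and S2, against 17.1 and 13.7 in S3 and S4 (log2 change 1.73 ± 0.23, edgeR adjusted p = 0.00938). The groups did not overlap in the Gzmc-f-high cells either, with 19.3 and 44.2 in Adar1-null against 6.5 and 6.49 in control libraries, or in the myeloid cells, with 680 and 1037 in Adar1-null against 440 and 262 in control libraries. Its UMIs sat in few cells: 1 cell gave 25 of 96 in S1 and 1 cell gave 67 of 157 in S2. The S2 cell is one of 2 Gzmc-f-low cells with at least 10 UMIs over the fibroblast genes Col1a1, Col1a2, Col3a1, Dcn and Sparc, 1 each in S1 and S2. Without these 2 cells Cxcl10 was at 46.4 and 31.9, with a log2 change of 1.23 (edgeR adjusted p = 0.645). Without the highest cell of each library it was 1.49 (adjusted p = 0.231), and over 13 alternatives the adjusted p lay between 3.03e-09 and 0.9997. The part of myeloid RNA in the Cxcl10 counts was not tested.

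Col1a1, the collagen alpha 1(I) chain, had 108 and 114 UMIs in S1 and S2 and 0 in S3 and S4, and 108 of these in S1 and 112 in S2 came from 1 cell each. Its mean of 49.8 CPM was at least 19.4-fold higher than the floor of 3 counts per control library. Serpinh1, a collagen chaperone with the fifth lowest p, gave 43 of 50 and 49 of 53 UMIs from the same 2 cells. The Col1a1 UMIs thus came almost wholly from 1 of 214 cells in S1 and 1 of 289 in S2. Without these cells 1 gene, H1f0, was called.

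The next genes by p did not pass. Hmgn1, a nucleosome-binding protein, was at 154 and 147 CPM in S1 and S2, against 81.0 and 83.0 in S3 and S4 (log2 change 0.82 ± 0.14, edgeR adjusted p = 0.0787). Hist1h2ap, a replication-dependent histone, was at 29.2 and 47.1 in Adar1-null against 12.5 and 9.45 in control libraries, and Rpl23a, a ribosomal protein, at 156 and 208 in Adar1-null against 101 and 81.9 in control libraries (adjusted p = 0.0870 each by edgeR). Histone and ribosomal protein genes have near-identical copies, so these counts are uncertain. Ccl22, a chemokine of mature dendritic cells, was at 3.85 and 5.62 in Adar1-null against 15.8 and 18.9 in control libraries (adjusted p = 0.226). Its UMIs came from 2, 6, 2 and 4 cells in S1 to S4, and 1 cell each gave 17 of 24 in S3 and 8 of 18 in S4. Rtp4 was at 31.9 and 53.8 in Adar1-null against 17.1 and 15.8 in control libraries (log2 change 1.35 ± 0.29, adjusted p = 0.381). In all 5 genes the groups did not overlap, as in 17.5% of genes upward and 17.4% downward over the whole table after scaling, or 22.8% and 13.1% without it. These 5 were named for their low p, so the lack of overlap comes with their choice.

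**Figure D4:**
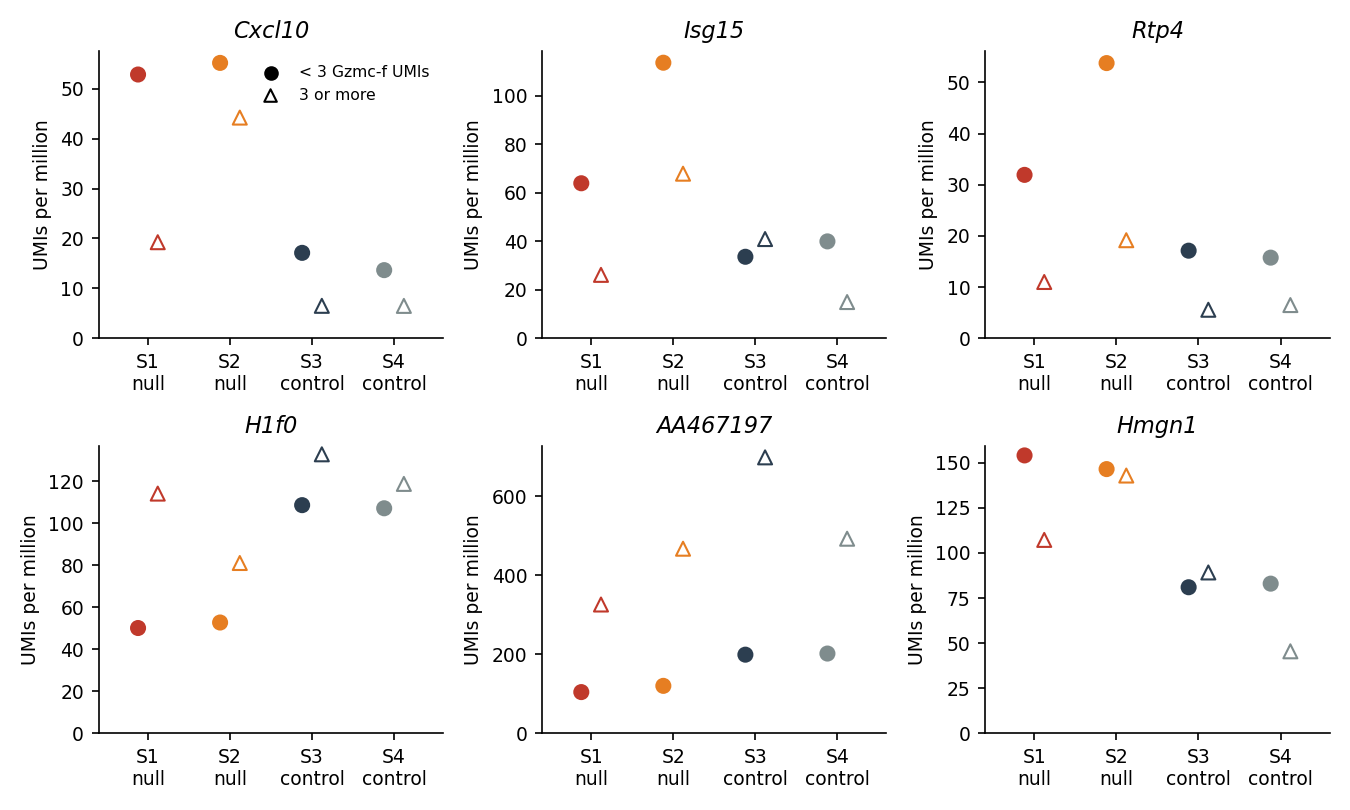
CPM in Gzmc-f-low cells (filled circles) and Gzmc-f-high cells (open triangles) of each library for 6 genes (vertical axes start at 0). In Gzmc-f-low cells Cxcl10, Isg15, Rtp4 and Hmgn1 are higher and H1f0 and AA467197 lower in S1 and S2, with H1f0 near 50 CPM in Adar1-null and 107 to 109 in control libraries.

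Most type I interferon-stimulated genes had log2 changes above 0 in Adar1-null over control libraries, with 0 called. Of 48 members tested, 42 had a log2 change above 0, against 50.1% of all genes. Of the 48, 20 did not overlap upward and 0 downward, against 17.5% and 17.4% of all genes. Without TMM scaling 24 did not overlap upward and 0 downward, against 22.8% and 13.1% of all genes. The median log2 change was 0.42, against 0.00 for all genes, 12 members had an unadjusted p under 0.05, all higher, and 0 passed the adjustment by edgeR. Isg15, a ubiquitin-like protein that is among the first interferon products, was at 63.9 and 114 CPM in S1 and S2, against 33.6 and 39.9 in S3 and S4 (log2 change 1.26 ± 0.29, edgeR adjusted p = 0.606). Ifit1, which binds foreign RNA ends, was at 12.7 and 20.7 in Adar1-null against 5.93 and 3.15 in control libraries, and Trim30d at 13.2 and 15.5 in Adar1-null against 6.58 and 3.15 in control libraries. Ifi27l2a, one of the 2 most abundant members, was at 827 and 1376 in Adar1-null against 511 and 247 in control libraries, and Bst2, the virus-tethering protein tetherin, at 164 and 214 in Adar1-null against 138 and 97.7 in control libraries. Ly6a, the other one, overlapped at 663 and 1069 in Adar1-null against 970 and 597 in control libraries.

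S2 and S4 lay furthest apart. After centring each gene on its mean, the list medians were 0.03 and 0.32 (log2) in S1 and S2, against -0.01 and -0.31 in S3 and S4. S2 was above S4 in 45 of 48 genes and above S3 in 40, and S1 was above S4 in 39, whereas S1 was above S3 in 24 of 48. In the myeloid cells 13 of the 48 genes did not overlap upward and 0 downward, and S1 was above S3 in 14 of 48. The share of all genes without overlap was not computed for the myeloid cells, so these 13 have no background beside them. Isg15 was there at 366 and 816 in Adar1-null against 327 and 131 in control libraries, and Rtp4 at 205 and 391.7 in Adar1-null against 214 and 137 in control libraries. Without cells of 3 or more macrophage UMIs, a setting that leaves 14 cells in S4, the log2 change of Ifit1 was 0.50, against 1.77 with all cells. The part of myeloid RNA in the result was not tested. In the Gzmc-f-high cells the list had 32 members tested, a median of 0.18, and 7 members without overlap upward and 1 downward, against 17.2% and 17.7% of all genes there.

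**Figure D5:**
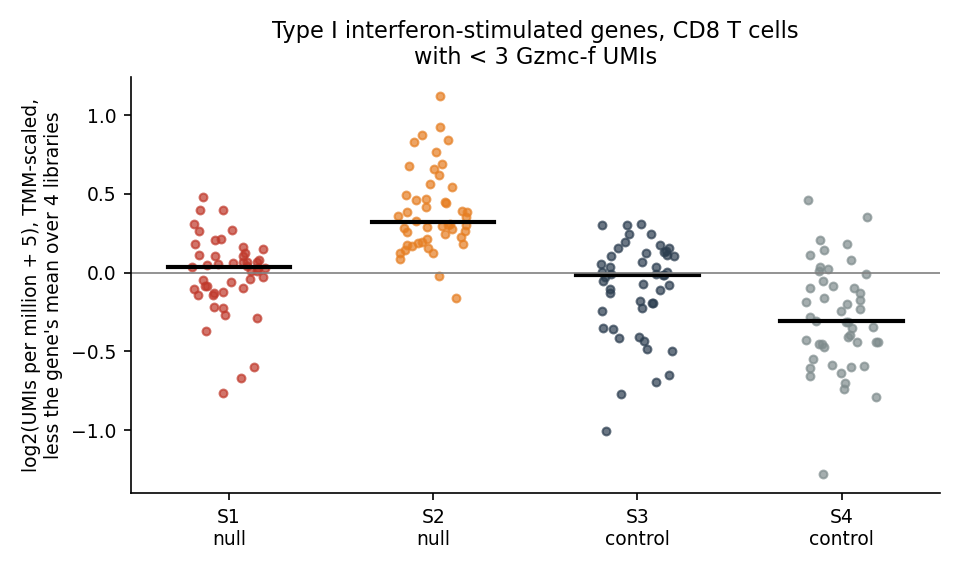
Level of each of 48 type I interferon-stimulated genes in Gzmc-f-low cells, as log2 of TMM-scaled CPM plus 5 less the gene's mean over the libraries (vertical axis). Points are genes and bars are medians, at 0.03 and 0.32 in S1 and S2, against -0.01 and -0.31 in S3 and S4.

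Promoters of interferon-induced genes can hold interferon-stimulated response elements, the sites bound by the factors that interferon signalling activates. The pattern GAAA, then any 2 bases, then GAAA, was searched on both strands (TTTC on either side of the 2 bases when read on the other strand) in the 250 bases before each gene's start (RefSeq, GRCm38.p6), where it can overlap itself. It was present in 3.46% of the 6338 tested genes with an entry and in 13 of 36 tested interferon-list members (36.1%). Among those members it was found in 8 of 17 whose groups did not overlap and in 5 of 19 whose groups did. The list is made of genes known to answer interferon, so a high share comes with its choice. No match was found in the windows of H1f0 (chr15:79027962-79028211) or AA467197 (chr2:122637637-122637886). These windows lie before RefSeq starts, which differ from the gene limits given above for both genes. The AA467197 window lies inside those limits, so the bases before the limits given were not searched for it. Shown are the windows of Cxcl10 (chr5:92348890-92349139, minus strand), Isg15 (chr4:156200819-156201068, minus strand), Ifit1 (chr19:34640639-34640888, plus strand) and Trim30d (chr7:104507850-104508099, minus strand), Cxcl10 as a called gene and the others as the interferon-list members of lowest p with a match, with matches in capitals:
Cxcl10: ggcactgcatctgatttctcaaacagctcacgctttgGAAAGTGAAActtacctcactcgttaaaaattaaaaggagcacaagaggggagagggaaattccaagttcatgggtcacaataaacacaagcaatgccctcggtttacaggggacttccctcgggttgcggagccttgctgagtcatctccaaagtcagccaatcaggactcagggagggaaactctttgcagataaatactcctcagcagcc
Isg15: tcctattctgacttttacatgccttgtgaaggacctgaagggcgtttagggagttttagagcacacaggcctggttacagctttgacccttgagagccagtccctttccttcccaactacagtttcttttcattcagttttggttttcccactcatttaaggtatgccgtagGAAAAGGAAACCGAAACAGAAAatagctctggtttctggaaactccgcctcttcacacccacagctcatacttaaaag
Ifit1: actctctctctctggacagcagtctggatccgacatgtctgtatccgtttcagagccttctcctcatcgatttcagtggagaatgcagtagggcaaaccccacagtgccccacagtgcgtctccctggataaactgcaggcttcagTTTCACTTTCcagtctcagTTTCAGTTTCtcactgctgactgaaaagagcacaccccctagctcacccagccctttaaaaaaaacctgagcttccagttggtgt
Trim30d: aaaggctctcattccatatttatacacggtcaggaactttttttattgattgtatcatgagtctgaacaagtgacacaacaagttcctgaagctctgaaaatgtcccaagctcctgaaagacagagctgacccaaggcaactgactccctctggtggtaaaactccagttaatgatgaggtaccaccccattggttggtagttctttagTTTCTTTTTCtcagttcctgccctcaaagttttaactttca
In Cxcl10 the match begins 213 bases before the start. Isg15 holds 3 overlapping matches, which begin 78, 72 and 66 bases before it. Ifit1 holds 2, on the other strand.

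Cytotoxic genes went in both directions. Of 19 members tested, 7 had a log2 change above 0, 2 did not overlap upward and 7 downward (17.5% and 17.4% of all genes), the median was -0.05, and 0 passed the adjustment. Gzmb, the dominant granzyme, overlapped between the groups at 1241 and 2793 in S1 and S2 against 2027 and 1163 in S3 and S4, as did Nkg7, a granule protein, at 2499 and 3295 in Adar1-null against 3251 and 2546 in control libraries. Ctla2a, a cysteine protease inhibitor, was at 232 and 306 in Adar1-null against 365 and 446 in control libraries (log2 change -0.64 ± 0.16, edgeR adjusted p = 0.542). Klrd1 (CD94), a lectin-like receptor, was at 548 and 543 in Adar1-null against 725 and 692 in control libraries. Gzma was at 74.3 and 129 in Adar1-null against 23.04 and 38.9 in control libraries (log2 change 1.74 ± 0.36, adjusted p = 0.717), but 1 cell gave 186 of the 367 UMIs in S2.

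Among T cell cytokine genes, Ccl5 and Ccl4 were the most abundant and overlapped between groups. Ccl5 was at 3161 and 6390 CPM in S1 and S2 against 5975 and 4797 in S3 and S4, and Ccl4 at 1654 and 1894 in Adar1-null against 2528 and 1101 in control libraries. Lta, lymphotoxin alpha, was at 18.7 and 7.73 in Adar1-null against 2.63 and 1.05 in control libraries (log2 change 2.54 ± 0.67, edgeR adjusted p = 0.606; 1.86 without S1). Xcl1 was highest in S1, at 629, with 290 in S2 and 298 and 192 in S3 and S4. Of its UMIs, 1 cell gave 258 of 1143 in S1, 434 of 825 in S2, 144 of 452 in S3 and 109 of 183 in S4. Of the 20 interferon-gamma-induced genes tested, 15 had a log2 change above 0, 6 did not overlap upward and 1 downward (17.5% and 17.4% of all genes). Of these, 1 passed (0.0489% of all genes), Cxcl10, which is also the 1 call among the T cell cytokines and was lost without the 2 cells with fibroblast transcripts (edgeR adjusted p = 0.645). Cxcl9 was at 170 and 37.6 in Adar1-null against 9.88 and 11.6 in control libraries, with 247 of the 308 UMIs of S1 in 1 cell, one of the 2 with fibroblast transcripts.

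Receptor genes gave 0 calls. Of 24 cytokine receptor and signalling genes, 4 had a log2 change above 0, with a median of -0.23, and 2 did not overlap upward and 5 downward (17.5% and 17.4% of all genes). Il2rg, the common cytokine receptor chain, was at 165 and 143 in S1 and S2 against 192 and 184 in S3 and S4. Of 12 costimulatory receptors, 2 were above 0 and 4 did not overlap downward, among them Cd27 at 187 and 212 in Adar1-null against 240 and 251 in control libraries and OX40 (Tnfrsf4) at 147 and 142 in Adar1-null against 157 and 269 in control libraries. Inhibitory receptors showed no common direction, with 6 of 13 above 0. Pdcd1 was at 257 and 277 in Adar1-null against 270 and 335 in control libraries, Lag3 at 183 and 281 in Adar1-null against 279 and 273 in control libraries, and Havcr2 at 51.2 and 72.4 in Adar1-null against 70.5 and 97.7 in control libraries.

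Of 17 homing genes, 1 did not overlap upward and 7 downward (17.5% and 17.4% of all genes), and 0 passed. Cxcr3 was at 16.5 and 17.9 CPM in S1 and S2 against 29.6 and 29.4 in S3 and S4 (log2 change -0.82 ± 0.25, edgeR adjusted p = 0.731). Ccr7 was at 35.8 and 45.3 in Adar1-null against 61.2 and 98.7 in control libraries (log2 change -0.98 ± 0.23, adjusted p = 0.529). A Ccr7 UMI was found in 6.07% and 7.61% of thinned cells in S1 and S2, against 14.4% and 14.7% in S3 and S4 (exact permutation p = 0.3333), and in 0.450% to 0.694% of myeloid cells. Without cells of 3 or more macrophage UMIs the log2 change was -0.27 for Ccr7 and -0.34 for Cxcr3, and without S4 it was -0.63 for Ccr7. Ccr7 also marks migratory dendritic cells. Of other genes of such cells, Ccl22 was lower in Adar1-null libraries, with its UMIs in few cells as given above. Fscn1, which bundles actin, was at 24.8 and 36.6 in Adar1-null against 27.7 and 36.8 in control libraries. The part of dendritic cell RNA in the Ccr7 values was not tested.

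Most proliferation genes had log2 changes above 0. Of 20 S-phase and 24 G2/M genes, 18 and 19 had log2 changes above 0, with medians of 0.13 and 0.12, and 0 passed. The centred G2/M medians of 0.12 and 0.02 in S1 and S2, against 0.09 and -0.25 in S3 and S4 place S4 below the rest. At least 5 cell cycle UMIs were counted in 87.9% and 85.8% of thinned cells in S1 and S2, against 81.4% and 74.5% in S3 and S4 (exact permutation p = 0.3333). Birc5, survivin, was at 350 and 355 in Adar1-null against 317 and 261 in control libraries. MHC class I genes had 14 of 18 log2 changes above 0 and a median of 0.15. B2m, the class I light chain, was at 4037 and 4304 in Adar1-null against 4428 and 3783 in control libraries.

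The remaining lists lay near the centre of all genes. Glycolysis had 10 of 17 above 0 and a median of 0.04, although Gapdh was at 600 and 611 CPM in S1 and S2, against 788 and 851 in S3 and S4 (log2 change -0.49 ± 0.13, edgeR adjusted p = 0.574). T cell receptor signalling had 10 of 18 above 0 and a median of 0.03, memory genes 6 of 15 and -0.05, effector and exhaustion transcription factors 13 of 22 and 0.05, lectin-like and NK receptors 10 of 14 and 0.09, and T cell cytokines 7 of 12 and 0.04. Immediate-early and dissociation genes, which the warm digestion can induce, had 15 of 27 above 0 and a median of 0.05. Fos was at 143 and 169 in S1 and S2 against 98.8 and 125 in S3 and S4. Id2, a transcriptional regulator of effector cells, was at 897 and 962 in Adar1-null against 1330 and 1086 in control libraries, and Runx3, which sets the CD8 lineage, at 121 and 131 in Adar1-null against 90.2 and 94.5 in control libraries. Adar itself had 10 and 44 UMIs in S1 and S2, against 21 and 18 in S3 and S4.

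Whether genotype acted differently in Gzmc-f-low and Gzmc-f-high cells was tested as an interaction with library as a block. Of 8102 genes, edgeR called 22 (0.272%), 11 with a higher and 11 with a lower difference in Gzmc-f-low cells, and 506 had an unadjusted p under 0.05. Of the 24 G2/M genes on the list, 1 was called, Tubb4b; the genes beside it here were picked from the calls after their values were seen. Plk1, a mitotic kinase, had 36.3, 32.3, 39.5 and 14.7 CPM in S1 to S4 in Gzmc-f-low cells, and at 20.6, 13.3, 53.9 and 38.3 in Gzmc-f-high cells (log2 difference 1.73 ± 0.39, edgeR adjusted p = 0.0168). Tubb4b, a spindle tubulin, was at 276, 260, 267 and 205 in Gzmc-f-low cells, and at 242, 206, 409 and 254 in Gzmc-f-high cells (0.70 ± 0.15, adjusted p = 0.0115). Cdca3 gave 0.70 ± 0.17 (adjusted p = 0.0478) and the histone variant H2afv 0.64 ± 0.14 (adjusted p = 0.0115). Within the Gzmc-f-high cells, 17 of 24 G2/M genes did not overlap downward in Adar1-null libraries, against 17.7% of all genes. In the Gzmc-f-low cells 5 of 24 did not overlap upward and 0 downward, against 17.5% and 17.4% of all genes.

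Many of the other interaction calls were genes of other cell types. Sparc, Col3a1, Timp1, Serping1 and Serpinh1 are stromal genes, and of their UMIs in Gzmc-f-low cells most came from 1 cell each in S1 and S2, as in Sparc with 227 of 236 and 130 of 143. H2-Aa, Apoe, Naaa, Spi1, Ctsl, Psap and Cd40 are genes of myeloid or dendritic cells. H2-Aa was at 336, 342, 215 and 538 in Gzmc-f-low cells, at 547, 324, 97.6 and 204 in Gzmc-f-high cells, and at 1280 to 4672 in myeloid cells. Fth1, a ferritin chain, was at 3031, 2577, 3339 and 3878 in Gzmc-f-low cells, at 2711, 2953, 2426 and 3016 in Gzmc-f-high cells, and at 20196 to 29663 in myeloid cells. The part of myeloid RNA in these calls was not tested. Without the 2 cells with fibroblast transcripts 13 genes were called, without S2 42, without S3 41 and without S4 12. Of the 22 genes, 7 were called without S1, 15 without S2, 14 without S3 and 9 without S4. H1f0 gave a log2 difference of -0.72 ± 0.22 (adjusted p = 0.225) and Cxcl10 of -0.49 ± 0.50 (adjusted p = 0.927), so for neither was the genotype difference shown to differ between the kinds of CD8 T cell.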

How the data were processed

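The authors deposited 1 matrix of whole-number UMI counts for 27998 genes and 8838 barcodes of 4 libraries, not normalized. The submitters' processing notes name Cell Ranger, Seurat 2.2.0 and mm10; their annotation and cell filters are not stated there. Each barcode's library name shows its group. Kept were barcodes of 500 or more genes whose UMIs were at most 10% mitochondrial. Scrublet (scanpy 1.11.5) scored doublets, and 13 Gzmc-f-low cells had a score of at least 0.1; they stayed in, with an alternative without them.

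Counts were summed per library and tested with edgeR 4.0.16 (R 4.3.3; TMM, filterByExpr, robust quasi-likelihood, Benjamini-Hochberg over all genes tested), with DESeq2 1.42.0 as an alternative. Levels (CPM) are UMIs divided by all UMIs of the summed cells, times 1000000, without TMM factors (0.981 to 1.02); whether groups overlap was judged after TMM scaling. Alternatives were other size factors, no count filter, fewer or other cells and leaving out each library. The fit was tested on simulated data. The cells, the 17 gene lists and the tests were chosen with earlier results of these data known. Named were the 10 genes of lowest p, the 2 of lowest p and 2 of highest level per list, the 10 highest and lowest between the kinds of CD8 T cell, and the 10 interaction calls of lowest p. Isg15, Trim30d, Bst2, Cxcl9, Fscn1, Xcl1, Tox, the genes of the Gzmb and Xcl1 divisions and the remaining interaction calls were named after their values were seen. Depths are given per library; intervals and floors (3 counts) cover counting error only. Some items are not reported here.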

Additional observations from a re-analysis of the deposited data

Results flagged for a closer look

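The genotype difference differed between Gzmc-f-low and Gzmc-f-high CD8 T cells by the interaction test (edgeR, Benjamini-Hochberg adjusted p up to 0.05) for these 10 genes of lowest p. The log2 difference was 5.46 for Sparc, -3.09 for Areg, 13.3 for Col3a1, -4.45 for Cd24a and 10.04 for Timp1. It was -1.66 for H2-Aa, 1.11 for Apoe, -2.21 for Naaa, -4.52 for Cbfa2t3 and 0.70 for Tubb4b. Col3a1 had 0 UMIs in both control sums of Gzmc-f-low cells and in both Adar1-null sums of Gzmc-f-high cells, so its fitted value depends on the prior count and is no measure of size. Timp1 too was at 0 in both Adar1-null sums of Gzmc-f-high cells, so the size of its value is uncertain. Single Gzmc-f-low cells gave 606 of the 610 Timp1 UMIs of S1. For Sparc, 1 cell each gave 227 of 236 in S1 and 130 of 143 in S2. Areg, a growth factor of the EGF family, was at 18.2, 3.51, 35.6 and 41.0 CPM in S1, S2 (Adar1-null), S3 and S4 (control) in Gzmc-f-low cells, and at 35.8, 8.84, 8.36 and 10.4 in Gzmc-f-high cells, with 23 of its 39 UMIs of S4 in 1 Gzmc-f-low cell. Cbfa2t3 was at 6.61, 9.14, 7.24 and 9.45 in Gzmc-f-low cells, and at 16.5, 19.2, 0.929 and 0.649 in Gzmc-f-high cells. Cd24a was at 4.40, 4.92, 9.88 and 13.7 in Gzmc-f-low cells, with 14 of its 15 UMIs of S3 in 1 cell. In Gzmc-f-high cells Cd24a was at 33.0, 8.84, 0.929 and 3.24. The control values of both genes in Gzmc-f-high cells rest on very few UMIs, so the size of these differences is uncertain. Naaa was at 30.3, 24.6, 19.8 and 29.4 in Gzmc-f-low cells, at 50.9, 29.5, 6.50 and 9.09 in Gzmc-f-high cells, and at 267, 428, 312 and 170 in myeloid cells.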

How the results depend on the processing

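The count of 4 genes called by edgeR in Gzmc-f-low cells depended on the settings. It was 68 with no filter on low counts (41 higher, 27 lower), 10 with DESeq2 (7 and 3) and 1 without the 2 cells with fibroblast transcripts, and lay between 27 and 220 with 1 library left out (27 without S1, 38 without S2, 220 without S3 and 60 without S4, where the lone library of a group is assumed to vary like the others). The interaction count of 22 was 42 with no filter and 13 without the 2 cells, and lay between 12 and 42 with 1 library left out. The causes were not tested. H1f0 was called under 13 of 13 alternatives, AA467197 under 10 and Cxcl10 under 9. Iigp1 had a log2 change of -0.10 without cells of 3 or more macrophage UMIs, a setting that leaves 14 cells in S4. Leaving out those cells with fibroblast transcripts, and each gene's highest cell, was chosen after seeing the data. No paired analysis was possible because the library names carry no replicate number. With 2 libraries a group, no permutation test of a share can pass 0.05.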

Other observations

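Library S4 had more neutrophil and haemoglobin transcripts than the other libraries. Among Gzmc-f-low cells the neutrophil genes S100a8, S100a9, Csf3r, Cxcr2 and Retnlg summed to 0.551 and 1.05 CPM in S1 and S2, against 2.63 and 85.1 in S3 and S4. Haemoglobin genes summed to 0 and 0 in Adar1-null and to 0.658 and 53.6 in control libraries. In the myeloid cells the neutrophil sum was 31.6 and 46.0 in Adar1-null and 32.9 and 118 in control libraries, and the haemoglobin sum was 0 and 0 in Adar1-null and 3.38 and 472 in control libraries. In Gzmc-f-low cells of S4 the highest of the neutrophil genes were S100a8 at 42.0 and S100a9 at 27.3. The highest haemoglobin gene there was Hbb-bs at 35.7.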
